A study of Mus musculus with 4 samples.

Results

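Interferon-stimulated effector genes are the genes that cells switch on in answer to interferons and whose products act against viruses and other intracellular microbes. A list of 40 of them was followed in cultured mouse keratinocytes with a null or a wild-type second Casp8 allele. The members were chosen by name: every gene probe whose gene name on the array was a listed gene, or an older alias of it, was taken, and the interferon regulatory factors were left out. All 40 genes had a probe, among 27962 gene names on the array, with 63 of the 41174 gene probes on the array. Of these 63, 61 were among the 35563 probes that could be tested, and each of the 40 genes kept at least 1 of them. A total of 4 genes stood on the array under an older name only: Cmpk2 as Tyki, Dhx58 as D11Lgp2e, Gbp3 as Gbp4 and Irgm1 as Irgm. Where a gene had several tested probes, the brightest one stands for it.

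The F/- cultures were epidermal keratinocytes of mice that carried the K5-Cre transgene, a Casp8 allele flanked by loxP sites and, opposite it, a null allele. The F/+ cultures, their controls, came from mice with the same flanked allele and the same K5-Cre but a wild-type second allele, so that Cre and 1 flanked allele were shared by both. Caspase-8, the product of Casp8, is the protease that starts apoptosis downstream of death receptors, and K5-Cre is a recombinase under the keratin 5 promoter, so that basal keratinocytes express it. Cells were taken from the skin of mice whose age is labelled P3, from 2 mice of each genotype, and RNA was extracted at culture passages 3 and 1. Each of 4 two-colour arrays compared the RNAs of a pair of mice, F/- labelled with Cy3 and F/+ with Cy5, and pairs 1 and 2 were run at each passage. The cultures were primary and no sorting is described.

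Every value of the genotype effect is therefore a ratio of F/- over F/+ on 1 array, given on the log2 scale, on which 1 is a 2-fold difference. Values of several arrays are given for pair 1 and then pair 2 of each passage. An SD with n = 4 is over all 4 arrays, which hold the same pairs of mice at each passage, not 4 independent animals. The limma test over both passages uses the spread within a passage, so the SD beside it is not the spread that its p-value measures. No array had its dyes exchanged, so a dye effect cannot be told apart from the genotype in any single ratio; where it is equal on all arrays it cancels in a difference between passages or between pairs. All arrays lay on 1 slide and in 1 scan. The Cy5 RNA of both late arrays is labelled passage 3 in the title, the description and the passage entry but first passage in its source name, and the passage entry was followed. The Casp8 probe had log2 ratios of 0.47 and -0.20 at passage 3, and 0.42 and 0.18 at passage 1. Whether that probe lies in the deleted part of the gene is not known here, so its ratio is no check of the deletion or of the labels.

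Markers of keratinocytes were bright in all 8 RNAs, with a log2 of their summed intensity between 19.14 and 19.31 in F/- and between 19.39 and 19.58 in F/+. The median log2 ratios of the 9 markers were 0.09 and -0.25 at passage 3, and -0.18 and 0.02 at passage 1. Over both passages 6 of the 9 were not called, none was called higher, and 3 fell in F/-, where 2.99% of all probes were called lower: Krt14, Krt5 and Perp, with mean log2 ratios of -0.66 ± 0.25, -0.60 ± 0.29 and -0.55 ± 0.20 (SD, n = 4; limma, adjusted p = 0.0261, 0.0318 and 0.0261). Those 3 ratios were -1.46, -1.36 and -1.27 with each array centred on its median in place of loess, and -0.40, -0.36 and -0.34, not called, with the values of the scanner software (limma, adjusted p = 0.079, 0.0999 and 0.093).

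As background, type I interferons (alpha, beta and, in skin, kappa) and type III interferons (lambda) bind receptors that activate the kinases Jak1 and Tyk2. Their signal leads to the complex ISGF3, which holds Stat2 and Irf9 and binds an interferon-stimulated response element in the promoters of target genes. Interferon gamma acts through a shorter palindromic element, the gamma-activated site. Keratinocytes both make and answer these cytokines.

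These response elements can be read in the promoters of the members. RefSeq promoter sequences of assembly GRCm38.p6 were matched for 30 of the 40 genes, and the 250 bases before each transcription start were searched on both strands. The letters GAAA, any 2 bases and GAAA again, a core of the interferon-stimulated response element, stood in at least 1 promoter of 16 of the 30 members (53.3%), against 936 of 27025 genes in the table (3.46%) and 2.98% of all promoters of this length. The palindrome TTCNNNGAA, a core of the gamma-activated site, stood in 7 of the 30 members (23.3%), against 8.13% of all genes and 7.02% of all promoters. Both stood in 4 members. A match describes the letters and not binding, and no match says only that these letters are not in the window.

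The printed stretches are the last 150 bases before the start, 5′ to 3′ on the strand of the gene, in lower case with matches to either motif in capitals. They belong to members with high genotype ratios (Isg15, Oasl2, Bst2, Irgm1 and Oas1a) and to Rsad2, which rose with passage. Others are Ifit1, of the Ifit family, and Ifitm2, whose mean ratio by its brightest probe was nearest to 0.
Isg15 promoter, chr4:156200819-156200968, minus strand: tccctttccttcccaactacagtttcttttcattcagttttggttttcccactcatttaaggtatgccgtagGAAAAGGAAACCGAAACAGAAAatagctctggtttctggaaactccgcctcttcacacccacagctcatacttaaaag
Oasl2 promoter, chr5:114896784-114896933, plus strand: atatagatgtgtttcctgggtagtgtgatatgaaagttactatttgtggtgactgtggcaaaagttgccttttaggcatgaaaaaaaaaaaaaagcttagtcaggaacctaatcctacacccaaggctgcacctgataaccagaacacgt
Bst2 promoter, chr8:71537473-71537622, minus strand: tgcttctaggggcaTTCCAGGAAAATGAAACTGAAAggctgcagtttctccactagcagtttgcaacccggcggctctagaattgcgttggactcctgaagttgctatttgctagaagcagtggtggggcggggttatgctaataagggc
Irgm1 promoter, chr11:48871421-48871570, minus strand: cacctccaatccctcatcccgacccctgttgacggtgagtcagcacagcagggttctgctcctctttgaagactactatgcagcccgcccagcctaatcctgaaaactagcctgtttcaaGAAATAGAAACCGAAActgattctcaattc
Oas1a promoter, chr5:120907526-120907675, minus strand: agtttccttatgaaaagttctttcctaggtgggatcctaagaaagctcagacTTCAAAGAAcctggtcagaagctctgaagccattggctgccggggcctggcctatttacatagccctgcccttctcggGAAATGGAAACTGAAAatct
Rsad2 promoter, chr12:26456453-26456602, minus strand: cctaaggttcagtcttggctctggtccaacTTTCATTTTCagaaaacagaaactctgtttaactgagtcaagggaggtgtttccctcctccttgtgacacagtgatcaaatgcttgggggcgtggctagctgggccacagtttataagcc
Ifit1 promoter, chr19:34640739-34640888, plus strand: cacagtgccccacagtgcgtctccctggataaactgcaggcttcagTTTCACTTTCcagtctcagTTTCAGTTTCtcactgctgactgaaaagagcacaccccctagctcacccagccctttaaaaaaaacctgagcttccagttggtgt
Ifitm2 promoter, chr7:140955962-140956111, minus strand: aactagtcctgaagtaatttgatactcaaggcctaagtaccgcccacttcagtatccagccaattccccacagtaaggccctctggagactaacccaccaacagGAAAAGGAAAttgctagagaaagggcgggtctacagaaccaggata
Isg15 carries 3 overlapping matches to the repeated GAAA, which begin 78, 72 and 66 bases before the start. In Bst2, matches begin 130 and 124 bases before the start, and the first overlaps a match to the palindrome that begins 136 bases before it. Irgm1 holds 2 overlapping matches that begin 30 and 24 bases before the start. Oas1a holds 2 that begin 20 and 14 bases before it and the palindrome 98 bases before it. Rsad2 has 1 match and Ifit1 has 2 separate matches on the opposite strand, where the repeat reads TTTC. Oasl2, with a mean log2 ratio of 1.13, has no match in its 250 bases, and Ifitm2, at 0.00 by its brightest probe, has 1. Ifi44 and Ifi35, at 0.80 and 0.64 and not printed, have no match either.

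The members stood well above the rest of the array on 1 of the 4 arrays and less far above it on the others. On the passage 3 arrays the median log2 ratios of the 40 genes were 0.26 in pair 1 and 0.31 in pair 2, with 31 and 33 of 40 above 0. On the passage 1 array of pair 1 the median was 1.14, and 37 of 40 were above 0. On the passage 1 array of pair 2 it was 0.15, with 25 of 40 above 0. Over all tested probes the medians of the 4 arrays lay between -0.01 and 0.00, and between 47.8% and 50.5% of probes were above 0.

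**Figure D1:**
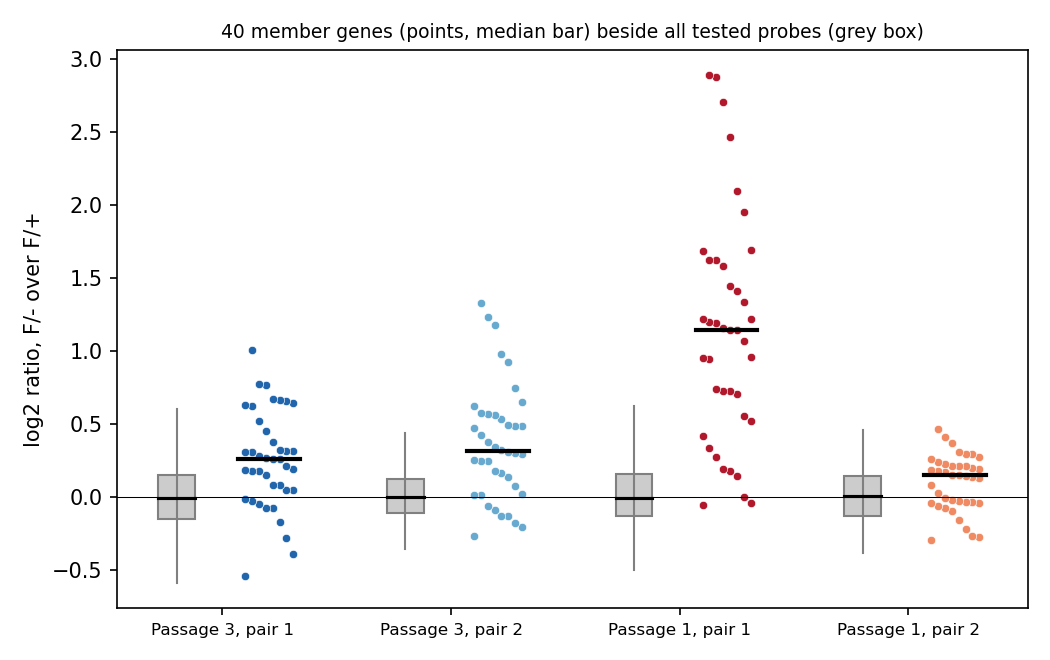
Log2 ratio of F/- over F/+ (y axis) on each of the 4 arrays (x axis): points are the 40 member genes, 1 probe each, with a black bar at their median, and the grey box and line beside them give the 25th to 75th and the 5th to 95th percentile of all tested probes with their median. The members' median stands between 0.15 and 0.31 on the passage 3 arrays and the passage 1 array of pair 2, and at 1.14 on the passage 1 array of pair 1.

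Ratios past 2-fold higher in F/- were found on the passage 3 arrays for 1 of 40 members in pair 1, where 1.01% of all probes passed the same mark, and for 3 of 40 in pair 2 (0.175%). The member of pair 1 was Usp18, and those of pair 2 were Usp18, Isg15 and Rtp4. On the passage 1 arrays, 22 of 40 passed in pair 1 (1.41% of all probes) and 0 of 40 in pair 2 (0.301%). No member was past 2-fold lower on any array. The ratio was highest on the passage 1 array of pair 1 for 36 of 40 members, against 27.1% of all probes. A ratio above 0 on all 4 arrays was found for 20 of 40, against 19% of all probes. Ifitm1 was below 0 on every array, and so was Tgtp, though on the passage 1 array of pair 1 by less than 0.01.

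**Figure D2:**
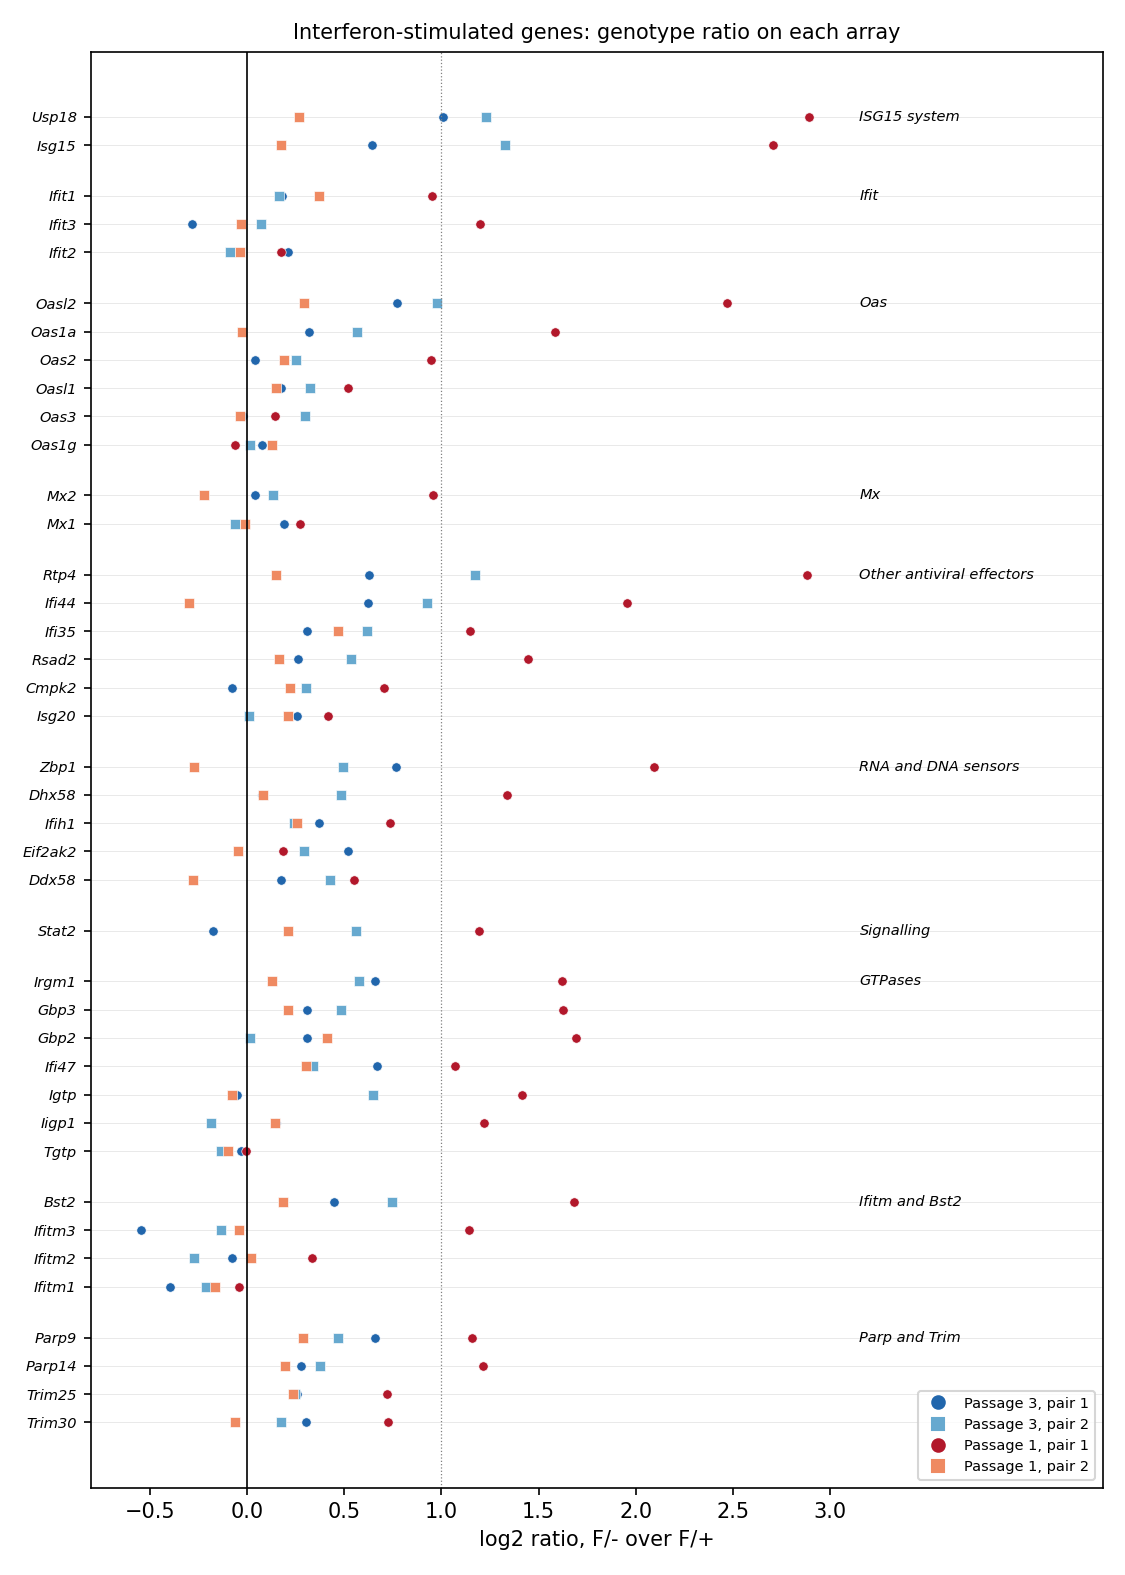
Log2 ratio of F/- over F/+ (x axis) of each of the 40 member genes (y axis, grouped by role and ordered within a role by the mean), with 1 point for each array and a dotted line at 2-fold. Points of the passage 1 array of pair 1 lie rightmost for 36 genes, up to 2.89 for Usp18, while those of the passage 1 array of pair 2 lie between -0.30 and 0.47.

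The ISG15 system held the highest mean ratios. Isg15 encodes a ubiquitin-like protein that is attached to other proteins during the interferon response, and Usp18 encodes the protease that removes it and also damps type I interferon receptor signalling. Usp18 had log2 ratios of 1.01 and 1.23 at passage 3, and 2.89 and 0.27 at passage 1. Isg15 had 0.64 and 1.33 at passage 3, and 2.70 and 0.18 at passage 1. Both were above 0 on 4 of 4 arrays, and in each the passage 1 array of pair 1 was the highest and that of pair 2 the lowest. The mean over 4 arrays was 1.35 ± 1.11 for Usp18 (SD, n = 4; 95% interval 0.24 to 2.46; limma, adjusted p = 0.119). It was 1.21 ± 1.10 for Isg15 (SD, n = 4; 95% interval 0.11 to 2.32; limma, adjusted p = 0.144). Neither passed the threshold of 0.05 after adjustment over all probes.

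Among the other antiviral effectors, Rtp4, a receptor transporter protein with antiviral activity, followed the same order of arrays. Its log2 ratios were 0.63 and 1.18 at passage 3, and 2.88 and 0.15 at passage 1. Ifi44, an interferon-induced protein, had 0.62 and 0.93 at passage 3, and 1.95 and -0.30 at passage 1. The arrays of Ifi44 fell on both sides of 0, since its passage 1 array of pair 2 was below it. Ifi35 varied less, with 0.31 and 0.62 at passage 3, and 1.15 and 0.47 at passage 1. Its mean was 0.64 ± 0.36 (SD, n = 4; limma, adjusted p = 0.0527), just outside the threshold, and 0.37 with median centring. Cmpk2, a nucleotide kinase, had -0.08, 0.30, 0.71 and 0.22 in the same order.

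Rsad2 and Isg20 were the effectors with probes that passed the test over both passages. Rsad2 encodes viperin, which makes a chain-terminating nucleotide analogue. A total of 2 of its 3 probes were called higher in F/-. The first of these had log2 ratios of 0.78 and 0.67 at passage 3, and 0.88 and 0.36 at passage 1, with a mean of 0.67 ± 0.23 (SD, n = 4; limma, adjusted p = 0.0323). The other had 0.59, 0.62, 0.84 and 0.38, with a mean of 0.61 ± 0.19 (SD, n = 4; limma, adjusted p = 0.0321). All 4 arrays lay on the same side in both. The brightest probe of Rsad2 had 0.26, 0.53, 1.44 and 0.17 and a similar mean of 0.60, but it did not pass (limma, adjusted p = 0.152). Its SD was 0.58 over all arrays, 0.19 within passage 3 and 0.90 within passage 1.

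Isg20 encodes an exonuclease that degrades viral RNA. Its second probe had log2 ratios of 0.12 and 0.24 at passage 3, and 0.58 and 0.44 at passage 1, with a mean of 0.35 ± 0.21 (SD, n = 4; limma, adjusted p = 0.039). The call of this probe was lost with the pair of mice as a replicate block (limma, adjusted p = 0.0558), with median centring (mean 0.20; adjusted p = 0.13) and with the scanner software's values (adjusted p = 0.079). Its brightest probe had 0.26, 0.01, 0.42 and 0.21 and averaged 0.23 ± 0.17 (SD, n = 4; limma, adjusted p = 0.124). Every array of either probe was above 0, by less than 2-fold.

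The Oas genes encode 2′-5′-oligoadenylate synthetases, which activate RNase L on sensing double-stranded RNA, and related proteins. Oasl2 had log2 ratios of 0.77 and 0.98 at passage 3, and 2.47 and 0.29 at passage 1. Oas1a had 0.32 and 0.56 at passage 3, and 1.58 and -0.03 at passage 1. The medians of the 6 Oas genes were 0.13, 0.31, 0.73 and 0.14 on the arrays in the same order, so the family's median was highest on the passage 1 array of pair 1. Not every gene followed it. Oas3 had -0.02, 0.30, 0.14 and -0.03 by its brightest probe, and 0.27, 0.02, 0.74 and -0.01 by its dimmer one. Oas1g had 0.08, 0.01, -0.06 and 0.13 and lay near background: its Cy3 signal was well above background on 1 array and its Cy5 signal on 2, and at passage 3 on none in either dye. Probes of the Oas1 genes and of other close copies may take up each other's transcripts, so the values of these members are uncertain.

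The Ifit genes encode proteins that bind viral RNA ends, and the Mx genes encode dynamin-like GTPases that block virus replication. Ifit1 had log2 ratios of 0.18 and 0.16 at passage 3, and 0.95 and 0.37 at passage 1, with a mean of 0.42 ± 0.37 (SD, n = 4; limma, adjusted p = 0.0787). Ifit3 had -0.28, 0.07, 1.20 and -0.03, and Ifit2 stayed between -0.09 and 0.21. Mx2 had 0.04, 0.14, 0.96 and -0.22, and Mx1 stayed between -0.06 and 0.28. Apart from Ifit1, the members of these families were above 0 on some arrays and below it on others.

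Among the sensors, Zbp1 binds Z-form nucleic acid and can trigger necroptosis through Ripk3, a pathway that caspase-8 restrains. Zbp1 had log2 ratios of 0.77 and 0.49 at passage 3, and 2.09 and -0.27 at passage 1. Its mean of 0.77 ± 0.99 (SD, n = 4) was smaller than its spread between arrays (limma, adjusted p = 0.264). Ifih1, which encodes the RNA sensor MDA5, had 0.37, 0.24, 0.74 and 0.26, all on the same side.

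Ddx58 encodes the RNA sensor RIG-I and had 4 tested probes that disagreed. A single probe was called higher, with 1.08 and 0.57 at passage 3, and 1.16 and 0.69 at passage 1 and a mean of 0.87 ± 0.29 (SD, n = 4; limma, adjusted p = 0.03). The means of the other 3 lay between 0.06 and 0.22, and the brightest of them, which stands for the gene, had 0.17, 0.43, 0.55 and -0.28.

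The interferon-inducible GTPases act on vacuoles that hold intracellular microbes and are known as targets of interferon gamma as well as of type I interferon. Irgm1 had log2 ratios of 0.66 and 0.58 at passage 3, and 1.62 and 0.13 at passage 1. Gbp3 had 0.31, 0.48, 1.62 and 0.21, and Gbp2 had 0.31, 0.02, 1.69 and 0.41. The median of the 7 GTPases was 1.41 on the passage 1 array of pair 1 and lay between 0.14 and 0.34 on the others. The 2 probes of Tgtp disagreed, with 0.84, 0.29, 1.39 and 0.21 for the dimmer one and -0.03, -0.13, 0.00 and -0.10 for the one that stands for the gene. Tgtp belongs to a family of close copies, so its assignment is uncertain.

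The membrane restriction factors split. Bst2 encodes tetherin, which holds budding virions at the cell surface, and had log2 ratios of 0.45 and 0.75 at passage 3, and 1.68 and 0.19 at passage 1. With median centring in place of loess the mean of Bst2 was 0.03 at passage 3, against 0.60 as reported, and 0.29 over both passages, against 0.77. The Ifitm proteins block the fusion of incoming virus. Ifitm3 had -0.54, -0.13, 1.14 and -0.04, Ifitm2 had -0.08, -0.27, 0.34 and 0.02, and Ifitm1 had -0.39, -0.21, -0.04 and -0.16. The dimmer probe of Ifitm2 had 0.22, -0.16, 0.47 and 0.33, with a mean of 0.22. Ifitm1 had the lowest mean of the list, -0.20 (limma, adjusted p = 0.112).

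Of the Parp and Trim genes, Parp9, of the ADP-ribosyltransferase family, had log2 ratios of 0.66, 0.47, 1.16 and 0.29 and a mean of 0.64 ± 0.37 (SD, n = 4; limma, adjusted p = 0.0676). Trim25, a ubiquitin ligase that acts on RIG-I, had 0.26, 0.25, 0.72 and 0.24. By these probes both were above 0 on all 4 arrays. The dimmer probe of Trim25 had -0.14, 0.25, 0.60 and -0.09, with a mean of 0.15. Stat2, the member that is itself part of ISGF3, had -0.17, 0.56, 1.19 and 0.21 and was below 0 on the passage 3 array of pair 1.

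Tested across all probes, few members passed in any genotype comparison. At passage 3 the median over the members was 0.27 with 34 of 40 above 0, and limma called 0 of the 61 member probes, as it called 0% of all probes. At an unadjusted p under 0.05, 9 of 61 were higher, against 11.5% of all probes. At passage 1 the median was 0.67 with 38 of 40 above 0, limma called 0 of 61 (0% of all probes), and 24 of 61 were higher at an unadjusted p under 0.05, against 12.2%. Over both passages the median was 0.41 with 38 of 40 above 0, and 4 of 61 were called higher by limma, close to the 5.85% called higher among all probes. No member probe was called lower, against 2.99% of all probes. At an unadjusted p under 0.05, 31 of 61 were higher, against 16.4%.

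Those 4 calls are the probes of Rsad2, Ddx58 and Isg20 described above. None of the 61 was called without the passage 1 array of pair 1, without the passage 1 array of pair 2 or without the passage 3 array of pair 1, and none once both arrays of a pair were averaged before the fit, which leaves 2 values per probe. In these settings limma called no probe of the whole array. With the pair as a replicate block, 7 of 61 member probes were called higher, against 5.93% of all probes. They were the probes of Rsad2 and Ddx58 with 1 probe each of Parp9, Ifi47, Irgm1 and Tgtp, and the probe of Isg20 was not among them. Without the passage 1 array of pair 1, the members' median was 0.15 at passage 1 (25 of 40 above 0) and 0.19 over both passages (34 of 40 above 0). Where arrays were centred on their median in place of loess, the passage 3 median was 0.08, with 29 of 40 above 0. With that centring, 917 of 3967 calls over both passages among all probes were higher, against 2081 of 3145 after loess.

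No member probe was called for a difference of its genotype ratio between passages or between pairs. For passage 3 minus passage 1 the median difference was -0.34, with 4 of 40 above 0. Limma called 0 of 61 (0% of all probes), and at an unadjusted p under 0.05, 0 of 61 were higher and 1 of 61 lower, against 2.49% and 3.34% of all probes. The single probe was the second one of Isg20. Without the passage 1 array of pair 1 the median of this difference was 0.15, with 27 of 40 above 0, so its sign rested on that array.

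For pair 1 minus pair 2 the median difference was 0.41, with 37 of 40 above 0. Limma called 0 of 61 (0% of all probes), and 6 of 61 were higher at an unadjusted p under 0.05, against 2.09%. The median without the passage 1 array of pair 1 was 0.03, with 22 of 40 above 0. Pair 1 exceeded pair 2 at both passages for 16 of 40 members, against 25.9% of all probes, and the 2 arrays of 1 pair are not independent animals.

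Levels, given as log2 intensity in each dye after normalization between arrays, show each culture on its own. At passage 3, pair 1 stood above pair 2 for 9 of 40 members in F/- (median difference -0.49) and for 11 of 40 in F/+ (median -0.41). At passage 1, the F/- culture of pair 1 stood above the F/- culture of pair 2 for 37 of 40 members, by a median of 0.57, and by over 2-fold for 12. The F/+ culture of pair 1 stood above that of pair 2 for 7 of 40 members at passage 1, with a median difference of -0.30. Over all probes, pair 1 stood above pair 2 for between 50.3% and 51.7% in these comparisons, with median differences between 0.00 and 0.01. The share of all probes past 2-fold was not counted here. The F/- culture of pair 1 had the highest level of the 4 passage 1 cultures for 35 of 40 members, against 26.9% of all probes.

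Usp18 and Isg15 show the pattern. The level of Usp18 was 13.09 and 13.63 in F/- and 12.08 and 12.40 in F/+ at passage 3, and 12.70 and 10.81 in F/- and 9.81 and 10.54 in F/+ at passage 1. The F/- culture of pair 1 at passage 1 lay between the passage 3 levels of the F/- and the F/+ cultures, and the other passage 1 cultures lay below every passage 3 culture. Isg15 had a level of 13.45 and 13.92 in F/- and 12.80 and 12.59 in F/+ at passage 3, and 14.26 and 12.16 in F/- and 11.56 and 11.99 in F/+ at passage 1. For Isg15 the F/- culture of pair 1 at passage 1 was the highest of all 8, and at each passage both F/- cultures lay above both F/+ cultures.

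**Figure D3:**
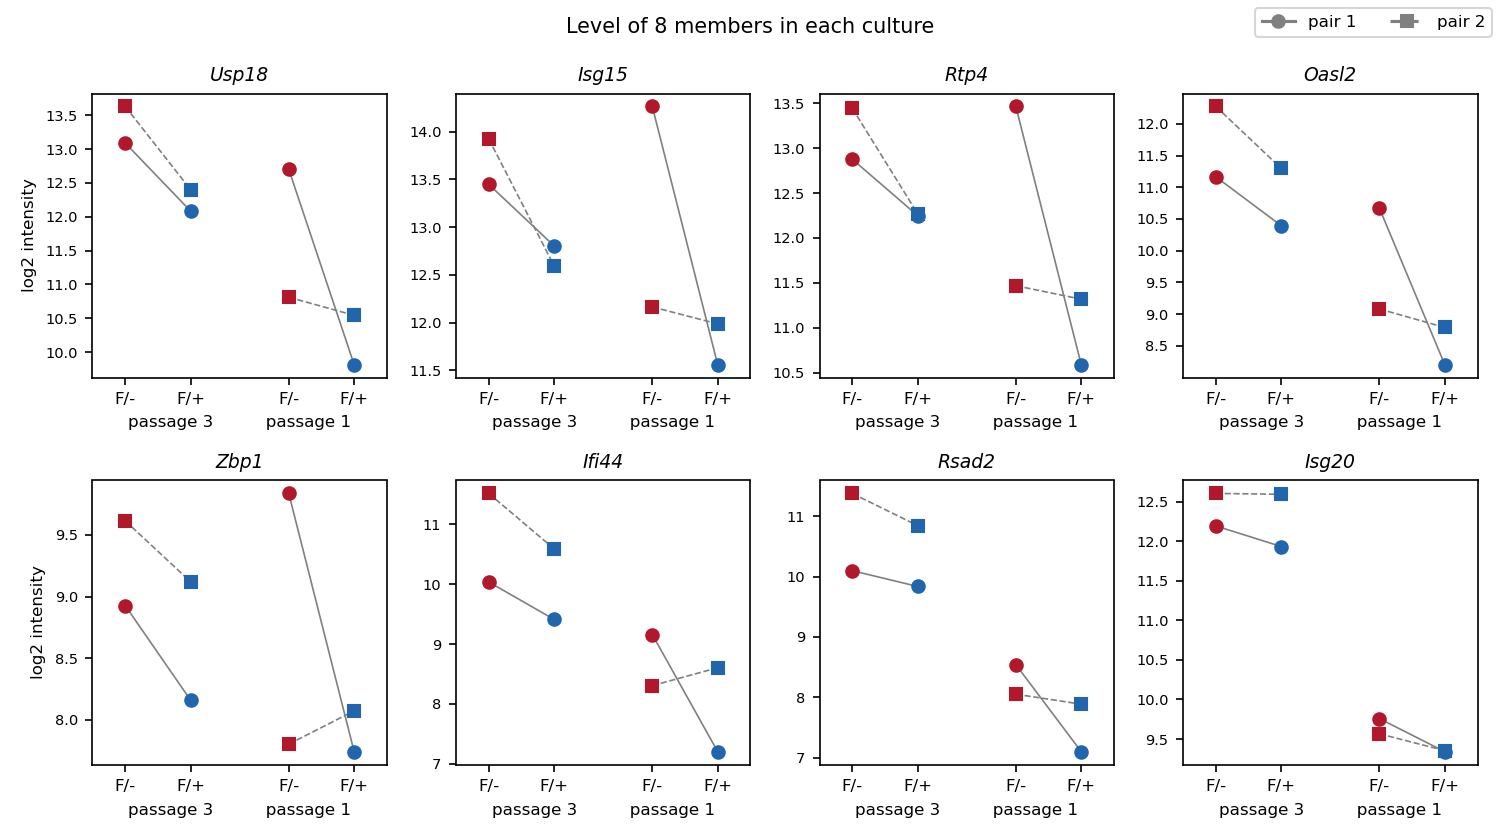
Log2 intensity (y axis, its own range in each panel) of 8 members in each of 8 cultures, with F/- in red and F/+ in blue at passage 3 and passage 1, circles for pair 1 and squares for pair 2, and lines joining the RNAs of 1 array. At passage 1 the F/- culture of pair 1 is the highest in all 8 panels. For Isg20, Rsad2 and Ifi44 all 4 passage 3 cultures lie above all passage 1 cultures.

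Across passages, the members' levels stood higher at passage 3 in 3 of the 4 lines of culture. The median difference, passage 3 minus passage 1, was 0.06 in the F/- culture of pair 1 (21 of 40 members above 0) and 1.25 in the F/- culture of pair 2 (38 of 40). It was 0.86 in the F/+ culture of pair 1 and 0.96 in that of pair 2, with 37 of 40 above 0 in each. A higher level at passage 3 in both pairs was found for 20 of 40 members in F/-, against 37.4% of all probes, and for 34 of 40 in F/+, against 35%. Over all probes the medians of these differences lay between 0.01 and 0.02. In these bulk RNAs, fewer cells of a type and less RNA per cell cannot be told apart.

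**Figure D4:**
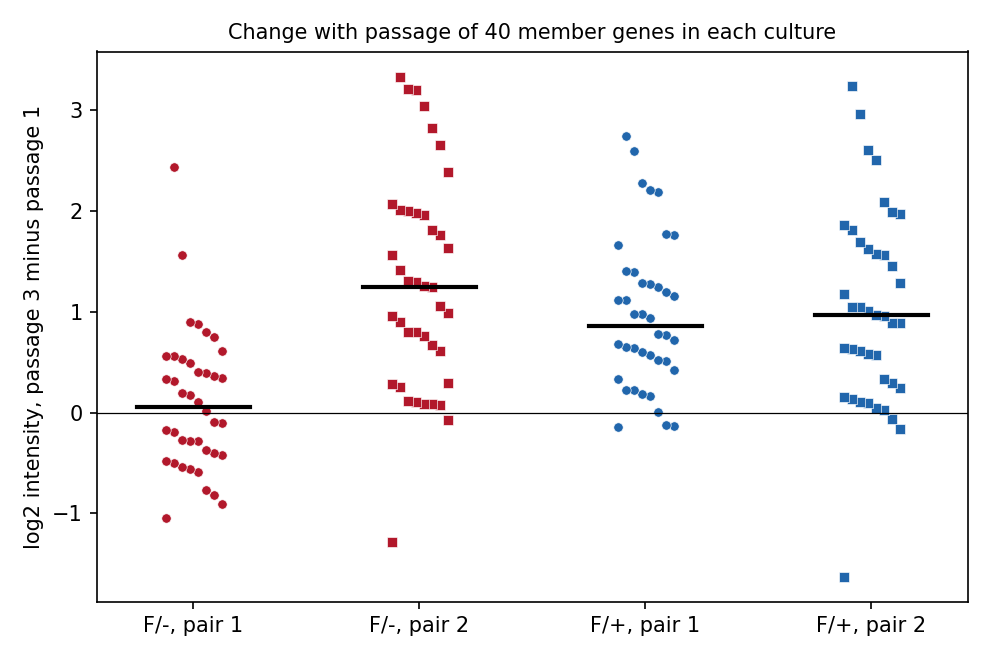
Difference in log2 intensity, passage 3 minus passage 1 (y axis), of the 40 member genes in each culture (x axis), with a black bar at the median. The medians are 0.06 and 1.25 in the F/- cultures of pairs 1 and 2, and 0.86 and 0.96 in the F/+ cultures.

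Tested within each genotype by limma's separate-channel fit, 4 of 61 member probes were called higher at passage 3 in F/-, against 2.89% of all probes, and 0 lower, against 2.22%. In F/+, 6 of 61 were called higher, against 3.23%, and 0 lower, against 2.42%. The median over the genes was 0.54 in F/- and 0.91 in F/+, with 35 and 37 of 40 above 0. With an array left out, the F/- median lay at 0.89 without the passage 1 array of pair 1, 0.18 without that of pair 2, 0.77 without the passage 3 array of pair 1 and 0.25 without that of pair 2. Both fits share the 4 arrays.

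Isg20 rose most of the members called. The level of its brightest probe was 12.19 and 12.60 in F/- and 11.93 and 12.59 in F/+ at passage 3, and 9.76 and 9.57 in F/- and 9.34 and 9.35 in F/+ at passage 1. All passage 3 cultures lay above all passage 1 cultures. The difference was 2.74 on the log2 scale in F/- (95% interval 2.19 to 3.28; limma, adjusted p = 0.00143) and 2.92 in F/+ (2.37 to 3.46; adjusted p = 0.00112). Its second probe differed by 2.01 in F/- and 2.34 in F/+ (limma, adjusted p = 0.00316 and 0.00166).

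Rsad2 rose as well. Its brightest probe had a level of 10.10 and 11.38 in F/- and 9.84 and 10.85 in F/+ at passage 3, and 8.54 and 8.05 in F/- and 7.10 and 7.88 in F/+ at passage 1, again with no overlap of the passages. The difference was 2.44 in F/- (limma, adjusted p = 0.0624, not called) and 2.85 in F/+ (adjusted p = 0.0364). Its other 2 probes rose by 1.70 and 1.47 in F/- (limma, adjusted p = 0.0147 and 0.0272) and by 1.59 and 1.47 in F/+ (adjusted p = 0.0169 and 0.0245). By its brightest probe, Ifitm2 differed by 0.75 in F/- (limma, adjusted p = 0.0695, not called) and rose by 1.10 in F/+ (adjusted p = 0.0186). Its dimmer probe differed by 0.34 in F/- and 0.71 in F/+ and was called in neither (limma, adjusted p = 0.382 and 0.0937). Whether such a difference is itself unlike in the genotypes is the test of the ratio between passages given above, which called no member. A lack of overlap between the passages was not particular to Isg20 and Rsad2. It was also seen in other members by the probe that stands for the gene, among them Ifih1, Ifit1 and Parp9. The share of all probes without overlap was not counted.

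Other members with large differences were not called, and their cultures varied widely. Oasl2 differed by 1.84 in F/- and 2.35 in F/+ (limma, adjusted p = 0.281 and 0.178). Ifi44 differed by 2.04 and 2.09, Usp18 by 1.60 and 2.07, and Bst2 by 1.59 and 1.93, in F/- and F/+. The passages of Ifi44 did not overlap by this probe, and its dimmer probe differed by 1.11 in F/- and 0.74 in F/+. Bst2, for example, had a level of 15.28 and 16.00 in F/- and 14.84 and 15.25 in F/+ at passage 3, and 14.75 and 13.34 in F/- and 13.07 and 13.16 in F/+ at passage 1. Its lowest passage 3 culture, at 14.84, lay just above its highest at passage 1, at 14.75, so its passages did not overlap either. Stat2 ran the other way, with -1.02 in F/- and -0.52 in F/+, not called in either. The counts of members called higher moved with single arrays, as did those of all probes. Without the passage 3 array of pair 1 there were 8 of 61 in F/- and 11 in F/+, against 4.7% and 7.11% of all probes, and without that of pair 2 there were 3 in F/- and 2 in F/+, against 2.67% and 2.22%. Without the passage 1 array of pair 1 there were 0 in F/- and 1 in F/+, against 0.0789% and 0.172% of all probes, and without that of pair 2 there were 0 in each, against 0.093% and 0.127%.

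The upstream genes of the interferon pathway were read from lists of ligands, receptors and transducers. Of 11 type I and III interferon ligands listed, 9 were measured, and their median log2 ratios were -0.02 and -0.04 at passage 3, and 0.00 and -0.08 at passage 1. By the probe that stands for each gene, none of the 9 was called over both passages or between passages, and Ifnb1, the interferon beta gene, had ratios of 0.15, 0.12, 0.15 and -0.08. Ifng, the interferon gamma gene, had 0.12, -0.06, -0.04 and -0.05 and was not called. Its level lay between 6.24 and 6.49 in all RNAs, near the mean of 6.23 for Oas1g, which lay near background. The log2 of the summed intensity of the 9 ligands was between 10.22 and 10.43. The offset draws ratios of dim probes towards 0, so ratios near 0 here do not show that the ligands were unchanged. The 6 receptor genes had medians between -0.11 and 0.10, with 0 called over both passages and 1 called higher with passage in F/+, Ifnar2 at 0.62 (limma, adjusted p = 0.0486). Of 5 signal transducers 1 was called higher over both passages, the kinase Tyk2, with 0.75 and 0.86 at passage 3, and 0.98 and 0.91 at passage 1 (mean 0.87 ± 0.10, SD, n = 4; limma, adjusted p = 0.0257).

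Irf9, which is part of ISGF3 with Stat2, was highest on the passage 1 array of pair 1 and lowest on that of pair 2. Its brightest probe had log2 ratios of 0.09, 0.36, 0.89 and -0.24. It was not called by that probe (limma, adjusted p = 0.413), while a dimmer probe was, with a mean of 0.66 (limma, adjusted p = 0.0453, and 0.0506 with the scanner software's values). The transducers' median was 0.62 on the passage 1 array of pair 1 and between -0.02 and 0.36 on the others. In the induction pathway of 9 genes, 1 was called higher over both passages, the kinase Ikbke (mean 0.51 ± 0.13, SD, n = 4; limma, adjusted p = 0.0282; not called with median centring, at 0.32 and adjusted p = 0.0766, or with the scanner software's values, at adjusted p = 0.0534). Tlr3, the receptor for double-stranded RNA, rose with passage by 1.73 in F/- and 1.77 in F/+ (limma, adjusted p = 0.00716 and 0.00577). None of the 4 feedback regulators was called over both passages, and neither was any of the 3 genes of RNA editing and decay.

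**Figure D5:**
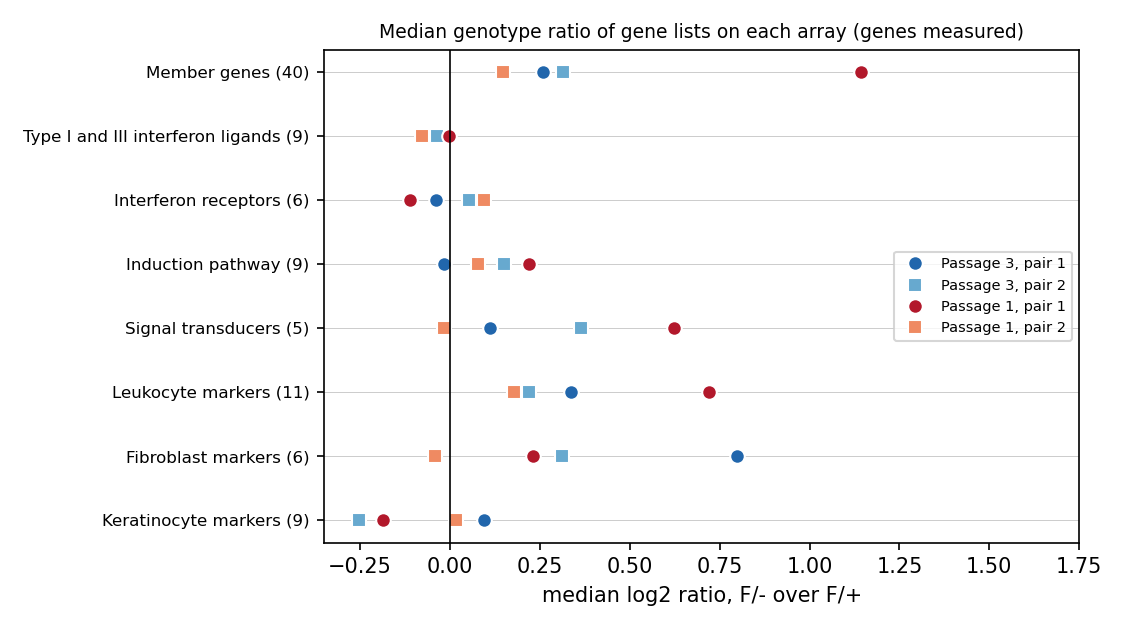
Median log2 ratio of F/- over F/+ (x axis) on each of the 4 arrays for the member genes, 4 of the interferon pathway lists and 3 of the marker lists (y axis, with the number of genes measured). On the passage 1 array of pair 1 the members stand at 1.14, leukocyte markers at 0.72 and interferon ligands at 0.00.

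Markers of leukocytes stood high with the members on the passage 1 array of pair 1, where all 11 were above 0. Their median log2 ratios were 0.34 and 0.22 at passage 3, and 0.72 and 0.18 at passage 1. Ptprc, which encodes the pan-leukocyte antigen CD45, had 0.34, 0.22, 0.58 and 0.18, and over both passages 1 of the 11 markers, Lyz2, was called higher by its brightest probe (limma, adjusted p = 0.0258). The log2 of their summed intensity was 13.67 and 13.05 in F/- and 12.02 and 11.89 in F/+ at passage 3, and 14.73 and 14.27 in F/- and 14.13 and 14.18 in F/+ at passage 1. Their sum was thus lower at passage 3 in all 4 lines of culture. Fibroblast markers had medians of 0.80 and 0.31 at passage 3, and 0.23 and -0.04 at passage 1. By passage, 1 leukocyte marker was called lower at passage 3 in F/- and 3 in F/+. Markers of Langerhans cells, T cells and plasmacytoid dendritic cells had medians between -0.24 and 0.07. Melanocyte markers had medians of 0.05 and 0.04 at passage 3, and -0.07 and -0.25 at passage 1, and 3 of the 5 were called lower at passage 3 in F/- and 2 in F/+. Endothelial markers had medians of 0.07 and -0.04 at passage 3, and 0.00 and 0.00 at passage 1, with 1 called lower at passage 3 in each genotype. The part of these cells in the members' ratios was not tested.

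Within the list, the order of the genes was partly shared between arrays. Spearman's rank correlation of the 40 ratios between arrays lay between 0.21 and 0.74, highest between the passage 3 array of pair 2 and the passage 1 array of pair 1. Genes are not independent replicates, and the arrays share the slide and the dye orientation. On the passage 1 array of pair 1 the ratio also followed the brightness of the probe, with a Spearman correlation of 0.49 across the 40 genes. The offset draws ratios of dim probes towards 0, and the brightness includes the signal of this array. The ratio and the brightness are thus not independent, and no value over all probes was computed. A total of 17 genes had several tested probes, of which Ifit2, Ifit3, Oas2 and Tgtp had probes with mean ratios of opposite sign.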

How the data were processed

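RNA of 8 keratinocyte cultures was compared on 4 two-colour Agilent arrays. Per the file headers, the deposited scanner files hold the mean and background intensity of each spot in both dyes, a background-corrected and dye-normalized processed intensity, and a log10 ratio, Cy5 divided by Cy3. Agilent Feature Extraction 9.1.3.1 is named in the submitters' processing notes. The authors' deposited value table held the scanner's log10 ratios with the sign turned, Cy3 over Cy5, with a largest gap of 4.96e-06 and column medians of -0.00223 and 0 for the early arrays and 0 and -0.000733 for the late arrays. It was not used beyond this check.

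Mean and background intensities, as deposited, were corrected by normexp with an offset of 50, which draws the ratios of dim probes towards 0. Arrays were normalized within by loess, gene spots of the same probe were averaged, and ratios were turned to log2 of F/- over F/+ (limma 3.58.1, R 4.3.3). Probes were tested where either dye, that is at least 1 channel, rose well above background on 2 or more arrays and at most 1 array lacked a value. Linear models with empirical Bayes moderation had 2 residual and 2.81 prior degrees of freedom, and tests were two-sided with Benjamini-Hochberg adjustment over all tested probes at 0.05. The models of the ratio fitted a mean for each passage, and the comparison of the pairs fitted a mean for each pair. Levels came from the loess values normalized between arrays by Aquantile, and passage was tested in limma's separate-channel fit with an intraspot correlation of 0.741. Signal was well above background at 75.8% to 85.4% of gene spots in Cy3 and 80.6% to 87.9% in Cy5, and 0 spots were saturated. Precision is limited by the number of arrays. Replicates are different mice, 2 per genotype. The design text says that the same mice were used at both passages, so the array numbers pair the arrays. The correlation of same-numbered deviations of the ratio from the passage mean was -0.000471 over probes. The ratios themselves thus did not show this pairing, which rests on the design text.

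The probe standing for a gene is its brightest tested probe. Values on every array are given for members past the threshold, for the 12 largest mean ratios, the 6 largest passage differences, the 3 means nearest to 0 and examples of each role. The members and all gene lists were chosen with earlier results of these data known. Alternatives were an offset of 0, median centring, the scanner's own values, no filter, the mean of a gene's probes, a pair block, pair averages and each array left out; the block and left-out fits of levels used the intraspot correlation given above and probes measured on all arrays used. The scripts were tested on simulated data. Promoters were searched with Python 3.11.15 for both motifs on both strands, and figures were drawn with matplotlib 3.10.9.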

Additional observations from a re-analysis of the deposited data

How the results depend on the processing

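The members' median ratio at passage 3, 0.27 as reported, was 0.0788 with median centring and 0.31 with the scanner's own values, and lay between 0.26 and 0.31 with an array left out. The 4 member probes called over both passages, all higher, became 9 with an offset of 0 (7.21% of all probes called higher), 7 with the pair as a replicate block (5.93%), 0 with the arrays of each pair averaged first (0%), and 0 to 3 with an array left out (0% to 6.47%). The 4 called higher with passage in F/- became 8 with median centring (2.52%), and 0 to 8 with an array left out (0.0789% to 4.7%). The 6 in F/+ became 10 with an offset of 0 (3.76%) and 12 with median centring (4.13%), and 0 to 11 with an array left out (0.127% to 7.11%). The F/+ median of 0.91 was 1.04 with an offset of 0 and with the scanner's values and 0.75 with the mean of a gene's probes, and ranged over 0.73 to 1.16 with an array left out. With an array left out, the passage 1 ratio ranged over -0.30 to 1.95 for Ifi44, -0.0259 to 1.58 for Oas1a and -0.27 to 2.09 for Zbp1, and the negative values were those without the passage 1 array of pair 1. The cause of these changes was not tested.

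Among all probes, the 3145 calls over both passages became 1933 with the scanner's values and 0 in 3 of the 4 settings with an array left out, and passage 1 had 69 calls with an offset of 0 against 0. The 1812 passage calls in F/- and 2006 in F/+ became 107 and 187 without the passage 1 array of pair 1, 128 and 194 without that of pair 2, and 3120 and 4569 without the passage 3 array of pair 1. No scaling moved an all-probe median by more than 0.1. For single genes, 411 values kept their direction and side of the threshold, 49 lost the call, 3 gained one and 3 changed sign. The replicate block changed no other count of member calls by over 1.5 times. With 2 mice per genotype, no dye exchange and 1 slide, the number of arrays sets the limits of these values.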
